A study of Homo sapiens with 28 samples.

Results

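The Notch receptors, ligands, coactivator and target genes examined here are 10 genes (NOTCH1, NOTCH2, NOTCH3, JAG1, JAG2, DLL1, HES1, HEY1, HEY2 and MAML2), taken by gene symbol from the platform annotation together with all 27 probe sets that name 1 of them, out of 19775 genes with a probe set. They were measured in SK-N-AS, an established human neuroblastoma cell line, on 28 single-colour Affymetrix arrays. In the derivative called the MYCN line (labelled SK-N-AS-tet, MYCN), a MYCN transgene is induced by doxycycline, and each of 7 times after the drug has 3 arrays (labels 0, 4, 8, 24, 48, 96 and 192, with no unit stated). The mock line (labelled SKNAS-pcDNA6TR, by its name a carrier of the tet repressor vector) was harvested after doxycycline at the same times, with 1 array per time, so the drug was used in both lines. Both grew in DMEM with 10% fetal calf serum. Whether either line is a single clone, and whether the replicates were separate cultures, is not given in the sources used here, so p-values measure the spread between these arrays, which may be technical.

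Notch is a pathway of contact between neighbouring cells. A Jagged or Delta ligand on 1 cell binds a Notch receptor on the next, ADAM proteases and then γ-secretase cut the receptor, and its intracellular part enters the nucleus, where it joins the DNA-binding protein RBPJ and a Mastermind coactivator. The HES and HEY genes, which encode transcriptional repressors with a basic helix-loop-helix domain, are its best known targets, and in neuroblastoma Notch signalling is a feature of the mesenchymal as opposed to the noradrenergic cell state.

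The promoter of HES1, the classic Notch target, is printed with those of JAG1 and MAML2, a ligand and a coactivator whose signals also changed in these arrays, as the 250 bases before the RefSeq start of each gene (GRCh38.p14), with capitals marking every match to TGGGAA on either strand, the core of the motif that RBPJ binds. The windows are chr3:194135898-194136147, plus strand for HES1, chr20:10674000-10674249, minus strand for JAG1 and chr11:96343196-96343445, minus strand for MAML2, each written 5′ to 3′ along its gene.
HES1: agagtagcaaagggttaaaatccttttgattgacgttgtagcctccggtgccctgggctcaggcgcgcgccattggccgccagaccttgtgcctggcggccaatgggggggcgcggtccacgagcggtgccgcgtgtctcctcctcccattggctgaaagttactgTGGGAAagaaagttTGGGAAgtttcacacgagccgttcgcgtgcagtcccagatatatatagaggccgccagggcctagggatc
JAG1: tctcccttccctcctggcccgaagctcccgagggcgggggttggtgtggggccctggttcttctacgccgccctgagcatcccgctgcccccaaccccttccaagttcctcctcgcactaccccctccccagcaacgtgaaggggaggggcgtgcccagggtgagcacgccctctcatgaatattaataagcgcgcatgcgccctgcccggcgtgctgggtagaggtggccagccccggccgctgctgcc
MAML2: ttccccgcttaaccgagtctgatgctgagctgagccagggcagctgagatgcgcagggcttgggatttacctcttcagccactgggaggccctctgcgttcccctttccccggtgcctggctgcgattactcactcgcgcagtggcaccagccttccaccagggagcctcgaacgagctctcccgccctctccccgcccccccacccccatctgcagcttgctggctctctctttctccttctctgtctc
HES1 held 2 matches, both on the strand of the gene, which began 84 and 70 bases before the start. Of 35114 RefSeq promoters of this length 20.8% held at least 1 match and 2.9% held 2 or more. JAG1 and MAML2 had 0 matches, and among the 8 members found in the promoter table HEY2 was the other with a match, a single match on the opposite strand that began 213 bases before the start. The E-box CACGTG, the motif of MYC proteins, was found in 0 of the 8 windows and in 6.35% of all promoters, so no match of one motif overlapped the other. A match is a description of the letters, and these arrays did not measure binding.

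Values are the deposited linear intensities, called signals here. Each gene was read through its brightest probe set (by mean log2 signal over all arrays), and was tested where that mean lay at or above the 40th percentile of all genes, a signal of 12.8. Of the 10 members 7 were tested: NOTCH1, NOTCH3, JAG1, JAG2, HES1, HEY1 and MAML2. NOTCH2, DLL1 and HEY2 lay below the threshold in all of their probe sets and have no test. Changes are differences of mean log2 signal with their standard error (SE) from limma, fitted to the 21 arrays of the MYCN line, and called where the p-value adjusted over all 11865 genes tested was under 0.05. Signals of different probe sets are not on 1 scale, so the level of a gene is compared with its own level in other arrays, and a sum over a marker list with the same sum in other arrays. The number of arrays limits the precision.

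The induction itself was strong. MYCN was higher by 4.65 (SE 0.17, limma adjusted p = 7.76e-13) at time 4 and by 5.27 at time 192, and MYC, the family member these cells express, had fallen by 1.93 (SE 0.48) at time 192. Median signals were 12.9 to 20.2 per array, and the mock array of time 192 had the highest. No label names a batch, but the spiked control bioD split the arrays into 2 sets that do not overlap. Set 1 holds replicates 1 and 2 of the MYCN line (bioD 1544 to 1941), and set 2 holds replicate 3 and all mock arrays (2322 to 2770). Values within set 1 and in replicate 3 stand beside the called members and NOTCH3. The lines also differed at time 0: PHOX2A, a noradrenergic transcription factor, had a mean signal of 4.37 with the MYCN transgene and 768 in the mock array. PTPRC, the leukocyte surface phosphatase CD45, read 262 in that mock array and had means of 23.2 or less at all times of the MYCN line. The other leukocyte markers with a probe set, CD3E, CD14 and LST1, lay below the threshold and read 27.8 or less in all arrays of both lines. Mesenchymal neuroblastoma markers were above the threshold for all 10 of the 11 that have a probe set naming 1 gene (summed signal 11900 to 13170 at first, 11000 to 11750 at time 192, and 9184 to 10590 in mock arrays). At time 192, 5 of these 10 were called (25.8% of all genes), in opposite directions. FN1 fell by 2.99, TWIST1 by 0.87 and PRRX1 by 0.58 (14.1% of all genes were called lower). The mock array of time 192 differed from that of time 0 by 0.63, 0.26 and -0.77 in that order, so PRRX1 was lower in both lines. CD44 and FOSL1 were higher by 1.37 and 1.80 (11.6% were called higher), and the mock array differed by -0.78 and -0.24. The limma adjusted p-values of these 5 were 4.37e-07 to 0.0467. Of the noradrenergic markers 5 of 9 were above the threshold (summed signal 545.8 to 608.1 at first, 389.7 to 481 at time 48, 513.9 to 606.9 at time 192, and 2013 to 2685 in mock arrays), with TH and DBH, the enzymes that define these cells, at or under 8.7 in all arrays. At time 192, 3 of the 5 tested were called (25.8% of all genes). CHGA had fallen by 3.06 and ISL1 by 0.43, and GATA3 was 0.39 higher (limma adjusted p = 0.0239 to 0.0398). The part of these marker changes and line differences in the results was not tested. Of the Schwann cell markers 0 of 6 passed the threshold, with 4 having a probe set and a summed signal of 12 to 48.

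At times 4 and 8 no member was called (0 of 7 by limma, with 0 and 1 at an unadjusted p under 0.05), where 0.00843% and 0.767% of all tested genes were. None was called at time 24 either (1 at an unadjusted p under 0.05), against 7.18% of genes. At time 48, 2 of 7 members were called (14.7% of all genes), with HES1 higher (7.04% of genes) and HEY1 lower (7.67%). Time 96 had 4 of 7 (23.4%), of which JAG1 and HES1 were higher (10.3%) and HEY1 and MAML2 lower (13.2%). Time 192 had 3 of 7 (25.8%), of which JAG1 and HES1 were higher (11.6%) and MAML2 lower (14.1%). The median difference over the 7 members was -0.13 at time 48, -0.01 at time 96 and -0.12 at time 192, beside -0.03 over all tested genes at each of these times. The moderated F-test over the 6 times called 3 of 7 (25.4% of genes), HES1, HEY1 and MAML2 (limma adjusted p = 0.00475, 0.0473 and 0.00215). JAG1 was just above the threshold (adjusted p = 0.0502) and was called with the replicate number as a block (0.00248). Without replicate 1 the F-test called 0 of the members and without replicate 2 it called 1. A linear trend on the time step in the MYCN line, added after the data were seen, was called for 5 of 7 members (39.2% of genes), JAG1, JAG2, HES1, HEY1 and MAML2. The members thus moved in both directions, and each is described by its own values.

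**Figure D1:**
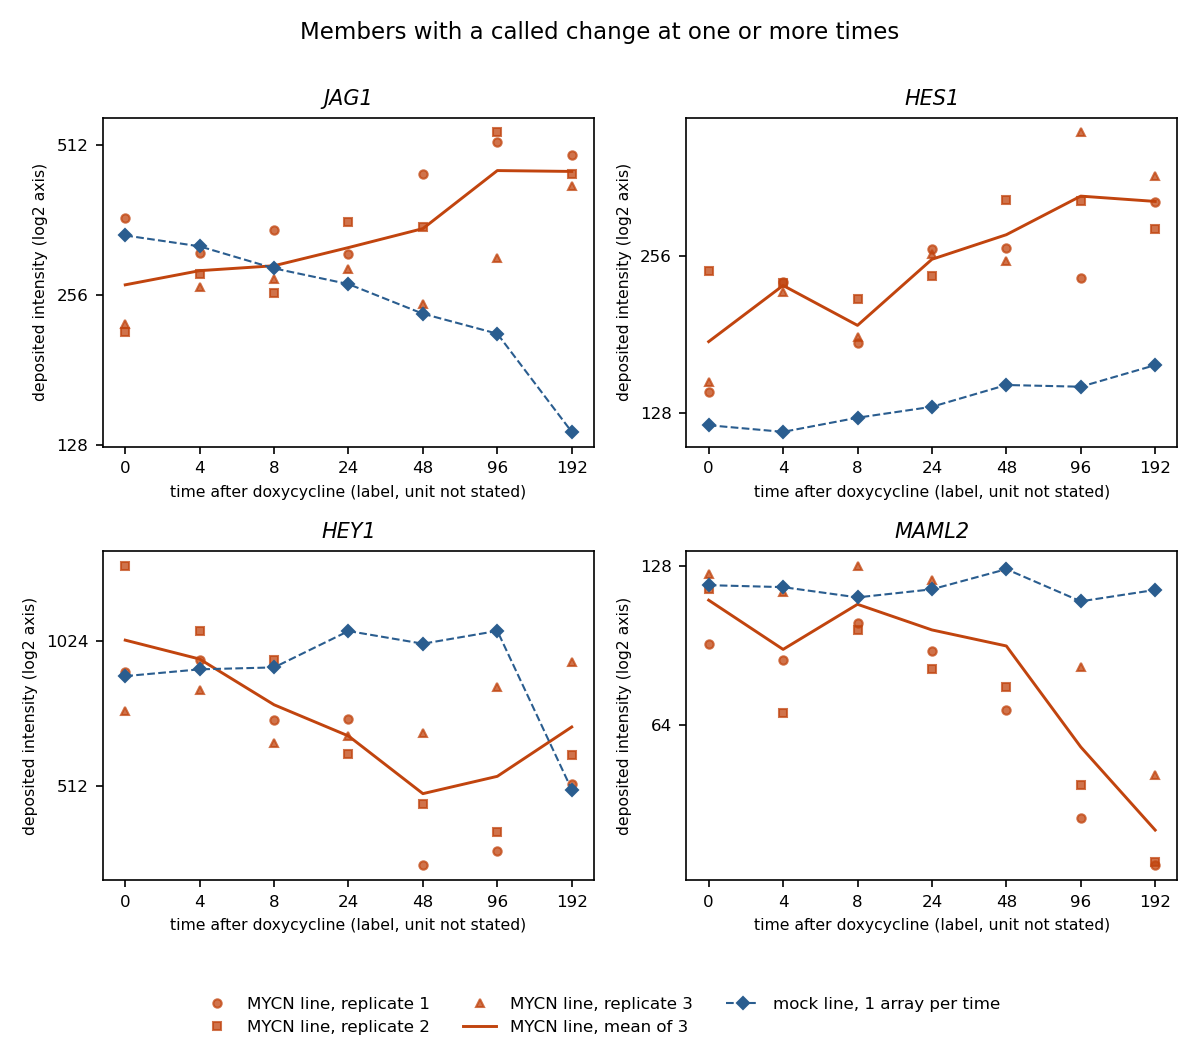
Deposited intensity (log2 axis) of JAG1, HES1, HEY1 and MAML2 against the time label after doxycycline; circles, squares and triangles are replicates 1, 2 and 3 of the MYCN line, the solid line is their mean and the dashed line with diamonds is the mock line with 1 array per time. HES1 of the MYCN line ends at 289 to 365 against 158 in the mock array, JAG1 moves apart between the lines to 424 to 488 against 136, and MAML2 ends at 34.8 to 51.5 against 115.

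The ligand JAG1 (Jagged1) rose in the MYCN line. Its signals were 366, 216 and 224 at time 0 (replicates 1, 2 and 3). They were 519, 542 and 303 by time 96 and 488, 447 and 424 by time 192. All arrays of time 192 lay above those of time 0, as did those of JAG2 and HES1 (3 of 7 members, and 16.5% of all genes), whereas at time 96 replicate 3 lay within their range. The change was 0.76 (SE 0.23, limma adjusted p = 0.0206) at time 96 and 0.80 (SE 0.23, limma adjusted p = 0.0136) at time 192, a 1.74-fold rise. It was not called at times 4 to 48, where the difference grew from 0.14 to 0.38. Within set 1 it was 0.92 and 0.73 at times 96 and 192 (adjusted p = 0.00604 and 0.0191), and in replicate 3 it was 0.44 and 0.92. At time 192 the call ended with equal array medians (0.82, adjusted p = 0.0737) and without replicate 2 or 3 of time 0 (0.66 and 0.69) or replicate 1 of time 192 (0.74), and 0.67 remained without replicate 2 at all times (adjusted p = 0.209). At time 96 it also ended with equal medians (0.79), when no other time was in the fit (0.76), and without replicate 2 or 3 of time 0 (0.62 and 0.65) or replicate 1 or 2 of time 96 (0.64 and 0.61), and it was 0.47 without replicate 2 at all times (adjusted p = 0.418).

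In the mock line JAG1 went the other way. On its brightest probe set the signal was 337, 321, 290, 269, 235, 214 and 136 at the 7 times in order, each lower than the one before. The trend was -0.19 log2 per time step (SE 0.03, limma adjusted p = 0.0148), where a step is the move from 1 time to the next and 3.13% of all genes had a called trend in that line. Of the 7 members 2 were called for this trend, JAG1 downward (1.52% of genes) and NOTCH3 upward (1.61%). The trend of JAG1 in the MYCN line was 0.14 per step (SE 0.03). The difference between the lines was 0.33 per step (SE 0.05, limma adjusted p = 6.91e-05, from the line-by-step interaction in all 28 arrays). This difference was called for 3 of 7 members, against 24% of all genes: JAG1 higher (11.2% of genes), and NOTCH3 and MAML2 lower in the MYCN line (12.8%). It held without the mock array of time 192 (0.27, adjusted p = 0.00551) and in set 2 alone, which holds 1 array of either line per time (0.30, adjusted p = 0.000625). With the mean of all 6 JAG1 probe sets it was smaller and still called (0.17, adjusted p = 0.03). The mock trend was called neither with that mean (-0.04, adjusted p = 0.706) nor without the mock array of time 4 (-0.19, adjusted p = 0.0698).

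JAG1 has 6 probe sets, of which 4 passed the signal threshold. All 4 were called higher at time 192, by 0.80 to 1.11, in the fit over 23169 probe sets (20% of them called at that time). All 4 were also called for the difference in trend, at 0.26 to 0.35 per step (18.6% of probe sets called). The other 2 read 12.2 or less in all 28 arrays.

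The second Jagged ligand, JAG2, had signals near the threshold. They were 15.3, 22.5 and 21.6 at time 0 and 35.1, 24.5 and 25.5 at time 192, all higher than those of time 0. The difference of 0.52 (95% interval -0.14 to 1.18, limma adjusted p = 0.247) was not called, while the added trend over the 7 times was (0.11 per step, SE 0.04, limma adjusted p = 0.0331). The mock line moved in the same direction, from 23.2 at time 0 to 40.8 at time 192. The difference in trend between the lines was -0.04 per step (95% interval -0.20 to 0.12, limma adjusted p = 0.766). The Delta ligand DLL1 had a signal of 0.8 to 19.1 in MYCN-line arrays and of 2 to 14.6 in mock arrays on its brighter probe set.

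Among the receptors, NOTCH3 separated the lines. In the MYCN line it read 24.0, 51.3 and 55.5 at time 0 and 26.4, 24.4 and 22.1 at time 192. Replicate 1 of time 0 lay as low as the arrays of time 192, so the groups overlapped. The difference was -0.75 (SE 0.30) and was not called (limma adjusted p = 0.0756). With the replicate number as a block it was called (adjusted p = 0.0392), as it was without replicate 1 of time 0 (-1.14, adjusted p = 0.00734). The difference was uneven, at -0.47 within set 1 and -1.33 in replicate 3. In the mock line the signal was 66.3, 49.2, 66.3, 76.6, 82.5, 98.5 and 203 at the 7 times in order. The mock trend was 0.26 log2 per step (SE 0.05, limma adjusted p = 0.0353), and the difference in trend between the lines was -0.33 per step (SE 0.08, limma adjusted p = 0.00336). Both rest on the mock array of time 192: without it they were 0.15 (adjusted p = 0.137) and -0.22 (adjusted p = 0.121). The mock trend also ended without the mock array of time 4, 8 or 24 (0.23, 0.25 and 0.26), and both ended with the mean of the NOTCH3 probe sets (0.14 and -0.22). The remaining NOTCH3 probe set read 7.3 or less in all arrays.

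NOTCH1, the receptor best known from T cell leukaemia, stayed near the threshold in the MYCN line, at 14.5 to 25.6 over the 21 arrays with a median of 19.1. Its differences from time 0 were -0.13 to 0.11 over the 6 times (limma adjusted p = 0.79 to 0.994), and at time 192 the 95% interval was -0.69 to 0.44. The mock arrays scattered more, at 4 to 27.7. The lowest of them was time 192, the array in which NOTCH3 was highest, and the difference in trend was not called (0.20 per step, limma adjusted p = 0.142). Without the mock array of time 96 it was (0.30, adjusted p = 0.0195). The 4 probe sets of NOTCH2 read 0.5 to 23.8 over all arrays, and on the brightest of them the lines shared a median of 9.4.

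**Figure D2:**
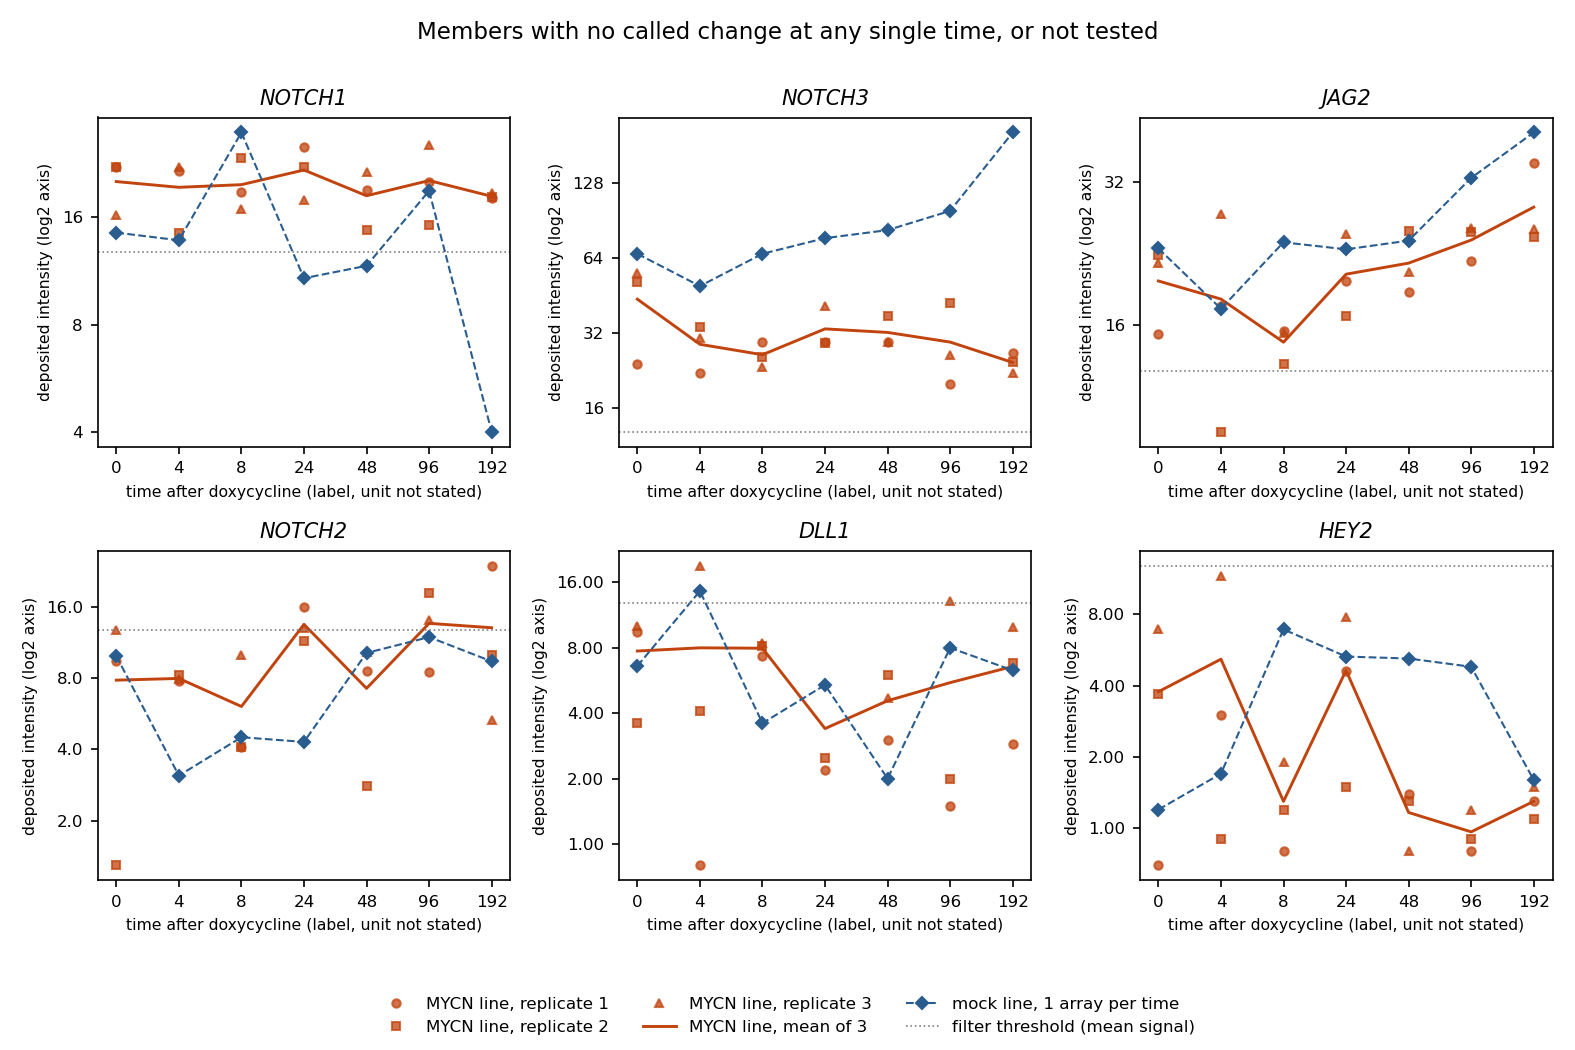
Deposited intensity (log2 axis, scaled per panel) of NOTCH1, NOTCH3, JAG2, NOTCH2, DLL1 and HEY2 against the time label; symbols as for the called members, and the dotted line marks the mean signal of 12.8 below which genes were not tested. NOTCH3 of the mock line climbs to 203 at time 192 while the MYCN line lies at 22.1 to 26.4, and NOTCH2, DLL1 and HEY2 scatter around or below the dotted line.

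HES1, the target whose promoter carries the pair of RBPJ motifs printed at the start, rose in the MYCN line. Its signals were 140, 240 and 147 at time 0 and 265, 328 and 251 by time 48. Later they were 233, 327 and 442 (time 96) and then 325, 289 and 365 (time 192). All arrays of times 48 and 192 lay above those of time 0 (HES1 was the 1 member of 7 to do so at time 48, as did 12.3% of all genes), in which replicate 2 was the high array. The change was 0.72 (SE 0.20, limma adjusted p = 0.0201) at time 48, 0.92 (adjusted p = 0.00233) at time 96 and 0.93 (SE 0.20, limma adjusted p = 0.00176) at time 192, which is 1.91-fold. At time 24 it was 0.57 (SE 0.20) and not called (adjusted p = 0.0922), though it was with the replicate number as a block (adjusted p = 0.0454) and without replicate 2 of time 0 (0.81, adjusted p = 0.0151).

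Within set 1 the HES1 changes were 0.69, 0.59 and 0.74 at times 48, 96 and 192 (adjusted p = 0.0435, 0.0682 and 0.0242), and in replicate 3 they were 0.78, 1.59 and 1.31. The call at time 192 held under all 19 alternatives in which HES1 was tested, of which set 1 alone and the omission of replicate 3 are the same fit. That of time 48 ended with the mean of the probe sets (0.66), when no other time was in the fit, and without replicate 1 or 3 of time 0 (0.58 and 0.61) or replicate 2 of time 48 (0.60). It also ended without replicate 1 or 2 at all times (0.62 and 0.85, adjusted p = 0.19 and 0.0819). The second HES1 probe set above the threshold gave 0.57, 0.62, 0.73 and 0.81 at times 24, 48, 96 and 192, all called (4.75%, 10.4%, 17.5% and 20% of probe sets). It also read 0.69 (SE 0.12) at time 4, with signals of 167, 149 and 163 against 87.3, 116 and 95.9 at time 0, which was not called over all probe sets (limma adjusted p = 0.124; 0.00863% of them were). Its signals at time 4 lay above all 3 of time 0, and those of time 8 (134, 125 and 116) lay between. In the mock line this second probe set also read higher early, at 76.8, 96.5 and 112.7 at times 0, 4 and 8. By time 192 it read 86.9 there, and its mock trend was not called (limma adjusted p = 0.939). On the brightest HES1 probe set 0 arrays of time 4 lay above all 3 of time 0. With each gene read through its brightest probe set, 1355 of 11865 genes had all arrays of time 4 above or all below those of time 0. Of the members 0 of 7 did.

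In the mock line the brightest HES1 probe set read 121, 118, 126, 132, 145, 144 and 158 at the 7 times in order. The arrays of times 0 to 24 lay below all 21 of the MYCN line, whose lowest was 140. The mock trend of 0.07 log2 per step (SE 0.02, limma adjusted p = 0.131) and the difference in trend of 0.09 per step (95% interval -0.01 to 0.19, limma adjusted p = 0.2) were not called. In set 2 alone the difference was called (0.16, adjusted p = 0.0281). So HES1 rose against time 0 in the MYCN line, but a steeper trend there than in the mock line was not called with all arrays.

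HEY1, a repressor related to HES1, moved in the opposite direction. Its signals were 884, 1470 and 732 at time 0 and 703, 597 and 649 by time 24. Means were lowest by time 48 (350, 470 and 659) and time 96 (375, 410 and 821), and read 516, 594 and 925 by time 192. The arrays of times 24 and 48 all lay below those of time 0 (1 of 7 members at either time, and 14.9% and 15% of all genes), whereas at times 96 and 192 replicate 3 was back within their range. The change was -1.05 (SE 0.29, limma adjusted p = 0.0213) at time 48 and -0.97 (adjusted p = 0.0211) at time 96, and it was not called at time 192 (-0.58, adjusted p = 0.158).

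The fall of HEY1 was not alike in the bioD sets. Within set 1 it was -0.82, -1.49, -1.54 and -1.04 at times 24, 48, 96 and 192, called at all 4 (adjusted p = 0.0376, 0.000369, 0.000185 and 0.0026). In replicate 3, the array of set 2, the differences were -0.17, -0.15, 0.17 and 0.34. The calls at times 48 and 96 also ended without replicate 2 of time 0 (-0.76 and -0.68) and without replicate 1 (-0.82 and -0.76) or 2 (-1.03 and -0.83) of the later time, and when no other time was in the fit (adjusted p = 0.0638 and 0.0546). Without replicate 1 at all times the values were -0.90 and -0.84 (adjusted p = 0.235 and 0.171), and without replicate 2 they were -0.74 and -0.54 (adjusted p = 0.33 and 0.429). The mock line read 866 to 1075 at times 0 to 96 and 502 at time 192. The difference in trend was -0.09 per step (95% interval -0.26 to 0.08, limma adjusted p = 0.47). The second HEY1 probe set followed the first (r = 0.99 over the 14 means of line and time, a description, since the means share arrays) and gave -1.07 and -1.10 at times 48 and 96, both called. HEY2, the sister gene, read 11.6 or less in all arrays on both of its probe sets.

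MAML2, a Mastermind coactivator that the Notch intracellular domain recruits to RBPJ, had the smallest F-test p-value of the members (limma adjusted p = 0.00215). Its signals were 91.3, 116 and 124 at time 0. They were 42.7, 49.3 and 82.6 by time 96 and 34.8, 35.3 and 51.5 by time 192. At both of those times the arrays lay below all 3 of time 0, as those of no other tested member did (19.4% and 19.6% of all genes did). MAML2 fell by 0.97 (SE 0.27, limma adjusted p = 0.0132) at time 96 and by 1.46 (SE 0.27, limma adjusted p = 0.000557) at time 192, to a 2.74-fold lower signal. At times 4 to 48 it was not called, with differences of -0.33 to -0.03. Within set 1 the changes were -1.16 and -1.55 at times 96 and 192, and in replicate 3 they were -0.58 and -1.27. The call at time 192 held under all 20 alternatives, of which set 1 alone and the omission of replicate 3 are the same fit. At time 96 it ended with the mean of the probe sets (-0.91) and without replicate 3 of time 0 (-0.88) or replicate 1 or 2 of time 96 (-0.78 and -0.88). It also ended without replicate 1 or 2 at all times (-0.91 and -0.84, adjusted p = 0.12 and 0.207).

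The mock line stayed flat for MAML2, at 110 to 126 in all 7 arrays (no called trend, limma adjusted p = 0.956). The difference in trend was -0.21 per step (SE 0.08, limma adjusted p = 0.0432). That call is close to the threshold: it ended under 14 of 20 alternatives, with values of -0.22 to -0.16, among them equal medians, quantile normalization and every left-out mock array except that of time 24. The second MAML2 probe set fell alongside at time 192 (-1.45, SE 0.46, limma adjusted p = 0.0291). It was not called at time 96 (-0.85, limma adjusted p = 0.219), by the F-test (adjusted p = 0.142) or for the difference in trend (-0.30, adjusted p = 0.0786). In that fit over all probe sets the brightest MAML2 probe set was not called for the difference in trend either (limma adjusted p = 0.051). By a fixed rule, the 5 genes whose means over the 14 combinations of line and time were most like those of MAML2 were DPYSL4, GASK1B, CSRNP3, MAP7 and DACH1 (Pearson r = 0.949 to 0.962 among 11858 candidates), over points that share the 28 arrays.

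**Figure D3:**
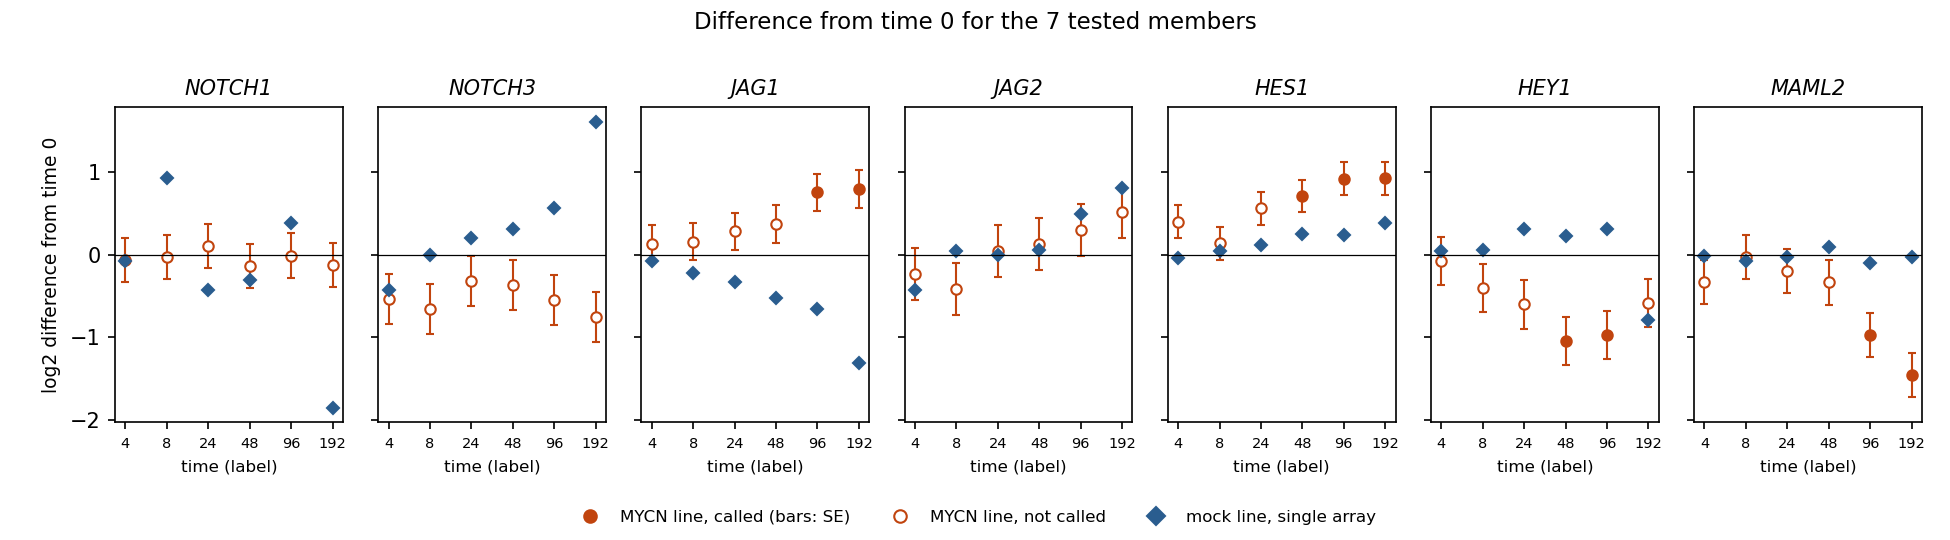
Log2 difference from time 0 at the 6 later times for the 7 tested members; circles are the MYCN line with SE bars, filled where called by limma at an adjusted p under 0.05, and diamonds are the single mock array against that of time 0. JAG1 at time 192 stands at 0.80 (MYCN line) and -1.31 (mock line), NOTCH3 at -0.75 and 1.62, and MAML2 at -1.46 and -0.03.

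Over all probe sets of the members, 14 of 27 passed the signal threshold, of JAG1 (4), JAG2 (2), HES1 (2), HEY1 (2), MAML2 (2), NOTCH1 (1) and NOTCH3 (1). Of these 14, 8 were called at time 192 (20% of all probe sets), 6 higher (JAG1 and HES1) and 2 lower (MAML2), and 8 at time 96 (17.5% of all probe sets). The F-test called 4 of 14 (19.4% of all probe sets), or 9 with the replicate number as a block. No gene had probe sets called in opposite directions at any time.

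**Figure D4:**
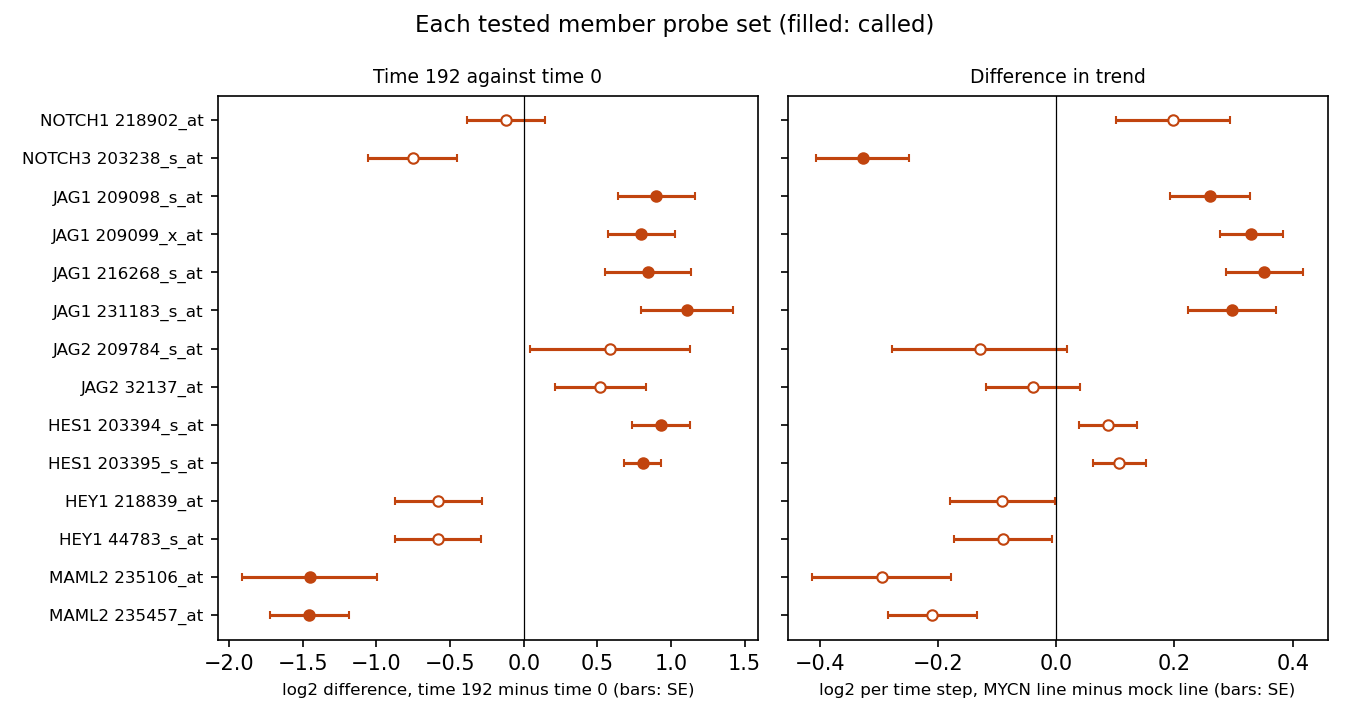
Each of the 14 member probe sets above the signal threshold, with its log2 difference at time 192 against time 0 (left) and its difference in trend between the lines in log2 per time step (right); bars are SE and filled circles were called by limma over 23169 probe sets. The 4 JAG1 probe sets lie at 0.80 to 1.11 on the left and 0.26 to 0.35 on the right, all filled.

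The rest of the pathway was read through 55 further genes, of which 52 had a probe set and 39 were tested (the lists were made with earlier results known). At time 192, 18 of the 39 were called, 7 higher and 11 lower (25.8% of all genes), with 0 called at times 4 and 8. There were 4 at time 24 (7.18% of all genes), 7 at time 48 (14.7%) and 13 at time 96 (23.4%). In the mock line 1 of 39 had a called trend (3.13% of all genes), and 13 of 39 were called for the difference in trend (24%), 4 higher and 9 lower in the MYCN line. The median difference at time 192 was -0.14, beside -0.03 over all tested genes.

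Of the other receptors and ligands 2 of 6 were tested. DLL3, a ligand that inhibits Notch within its own cell, was called from time 24 on and stood 0.98 (SE 0.20, limma adjusted p = 0.00131) higher at time 192, from a mean signal of 48.9 to 95.5. Its mock array of time 192 differed by -0.12, and the difference in trend was called (0.18 per step, adjusted p = 0.0281). NOTCH4 had no call (0.53, adjusted p = 0.448).

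Among the genes for cleavage of the receptor (ADAM proteases, furin and γ-secretase subunits), 8 of 9 were tested, and at time 192, 1 was higher and 2 were lower (11.6% and 14.1% of all genes). APH1B, a γ-secretase subunit, fell by 1.14 (SE 0.25, limma adjusted p = 0.00216), from 72.7 to 32.2, and ADAM17, a protease of the first cut, by 0.38 (SE 0.10). The other γ-secretase subunits tested, PSEN2, NCSTN, APH1A and PSENEN, named after their values were seen, had differences of -0.36 to -0.31 that were not called (limma adjusted p = 0.0552 to 0.0762). The added trend in the MYCN line was called for each of them (-0.06 to -0.05 per step, limma adjusted p = 0.00895 to 0.0341), as for 39.2% of all genes. Their mock arrays of time 192 differed by 0.10, 0.06, -0.05 and -0.24 in that order. FURIN, which processes the receptor in the Golgi, was 0.52 higher (SE 0.17, adjusted p = 0.029), and its mock array moved further in that direction (1.09).

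Of the genes for receptor glycosylation, ligand ubiquitination and receptor turnover, 12 of 17 were tested, with 2 higher and 5 lower at time 192 (11.6% and 14.1% of all genes). POGLUT1, an O-glucosyltransferase of Notch, fell by 0.50 (SE 0.12, limma adjusted p = 0.00365), RFNG, a Fringe glycosyltransferase, by 0.69 (SE 0.18) and MIB1, the ubiquitin ligase that activates Notch ligands, by 0.37 (SE 0.10). The mock arrays of time 192 differed by -0.27, 0.43 and 0.53 in that order. For MIB1 the difference in trend was -0.17 per step (limma adjusted p = 0.000114).

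In the nuclear complex and its corepressors 14 of 16 were tested, with 2 higher and 4 lower at time 192 (11.6% and 14.1% of all genes). TLE3, a Groucho corepressor that HES proteins recruit, rose by 1.37 (SE 0.18, limma adjusted p = 2.04e-05), from 56.6 to 144, and was already called at time 24 (0.98). CTBP2, another corepressor, rose by 0.29 (adjusted p = 0.0287), and its mock array of time 192 by as much (0.28). TLE4 fell by 0.29 (adjusted p = 0.0147). RBPJ, the DNA-binding core of the pathway, is outside the rule for named genes and was looked at after its value was seen: it was 0.61 lower at time 192 (SE 0.14, limma adjusted p = 0.00229), from 1092 to 715, and 0.21 higher in the mock array.

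Of the genes listed as other targets, 3 of 7 were tested for change. Whether Notch controls any of them in these cells was not tested. HES6, an inhibitor of HES1, was called higher at times 48, 96 and 192 (2.14, 2.23 and 1.68, limma adjusted p = 0.0311 at time 192), from a mean signal of 14.4 at time 0 to 36.1 at time 192. Its mean log2 signal at time 0 (3.48) lay under the threshold of 3.68, so the size of these differences is uncertain. The mock line read 39.1 at time 0. NRARP, a feedback inhibitor of Notch, and HEYL, another HEY gene, had no call at time 192 (0.35 and -0.61, limma adjusted p = 0.436 and 0.303).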

How the data were processed

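The authors' deposited table holds linear intensity values for each probe set on each array. MAS5 and GCOS are named in the submitters' processing notes, without versions. Every array has the same trimmed mean, which was checked on the table. Of 54675 probe sets 41091 name 1 gene, 1801 several and 11783 none, by the platform annotation; only the first kind was used, without the 62 control probe sets. Symbols were updated through the gene identifier (41037 matched). Values at or under 0 (91 in all) became 0.1, and all were taken to log2.

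Fits were made in limma 3.58.1 under R 4.3.3 (lmFit and eBayes with trend), two-sided, with Benjamini-Hochberg adjustment. Residual degrees of freedom were 14 (MYCN line), 5 (mock trend) and 24 (difference in trend). Scripts were tested on simulated data. Promoters came from RefSeq. The members, lists and tests were chosen with earlier results of these data known. The rule for named genes took all members, MYCN and MYC, up to 3 genes per pathway list by F-test p-value, and 5 genes most like the member with the smallest p-value. Alternatives covered blocks, scaling, probe sets, the filter, a pseudocount of 16 and left-out arrays.

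Deviations from group means of same-numbered arrays correlated with those of time 0 at 0.129 to 0.367 at times 4, 8 and 192. For replicate 2 the values were -0.0608, 0.0549 and -0.0248 at times 24, 48 and 96. Same-numbered arrays share a bioD set at every time, and arrays of different numbers were not compared. These values therefore cannot show whether the numbers pair the arrays. The reported fits have no block; the block is an alternative.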

Additional observations from a re-analysis of the deposited data

Results flagged for a closer look

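A difference in trend between the MYCN line and the mock line, from the interaction of line and time step, passed limma's test for 3 members, each in log2 per time step (MYCN line minus mock line). JAG1 differed by 0.33 (SE 0.05, adjusted p = 6.91e-05), with a falling mock line and a rising MYCN line on its brightest probe set. NOTCH3 differed by -0.328 (SE 0.08, adjusted p = 0.00336), a call that rests on the mock array of time 192. MAML2 differed by -0.209 (SE 0.08, adjusted p = 0.0432), with a flat mock line, and that call ended under 14 of 20 alternatives (adjusted p up to 0.155). The mock line has 1 array per time, and line and clone cannot be told apart.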

How the results depend on the processing

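Among called values of single members 0 changed sign under any alternative. No alternative fitted the times in replicate 3 alone, where HEY1 at time 96 had the opposite sign (0.17). Blocking on the replicate number gave 1 member called at time 24 (HES1), and of member probe sets called by the F-test 9 in place of 4, as with the bioD set as a block (9); calls of NOTCH3 at time 192 and HES1 at time 24 were gained, and no call was lost. Within bioD set 1 the count at time 24 was 1. For the times of the MYCN line that is the same fit as the one without replicate 3, and counts of alternatives hold it under both names. Without the suffixes _s_at and _x_at, where 4 members were tested and JAG1, NOTCH3 and HES1 dropped out, the counts were 1, 2 and 1 at times 48, 96 and 192, and 0 for the mock trend and the difference in trend. The mean of all probe sets gave 1 at time 48 and 0 for the mock trend, and fits to the 2 times alone gave 0 at time 48 and 2 at time 96. The mock trend had 1 call with no filter, 1 with the filter at the 60th percentile and 1 with log2(time + 1). Left-out arrays gave 0 to 1 at time 24, 0 to 2 at time 48, 1 to 5 at time 96, 2 to 4 at time 192, 0 to 3 by the F-test, 0 to 2 for the mock trend, 1 to 3 for the difference in trend (its mock arrays were left out after the data were seen) and 0 to 5 for the probe sets. Scaling alternatives moved the median of all genes by at most 0.05. Signals near the threshold limit NOTCH1, JAG2 and NOTCH3.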

Other observations

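A further probe set names NOTCH2 together with 4 NOTCH2NL genes, near-identical copies of part of NOTCH2, and was not used for any single gene. It read 19.2 to 62.3 over the 28 arrays, with a median of 42.3.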
